A study of Mus musculus with 8 samples.

Results

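The lipogenic program of the liver was followed through 10 genes that make fatty acids from sugar, act in linked steps of fat metabolism or switch the pathway on. Srebf1 encodes the transcription factor SREBP1 and Mlxipl the transcription factor ChREBP. The target genes are Thrsp, Pklr, Acly, Acaca, Acacb, Fasn, Me1 and Gpam. All 10 members were chosen by name, with earlier results of these data known. They are 10 of the 19752 gene symbols that could be matched to the arrays, and 16 of the 55681 probes carry them. All 10 genes were tested, each through the probe with the highest mean signal, and that probe was well above the local background on all 8 arrays for every gene. Of the 16 probes 15 passed the filter on dim signal, which asked for 1 or more groups with both mice well above background. The probe that failed was the dimmest of 3 probes for Acaca and was above background on 2 of 8 arrays.

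Liver RNA came from 8 male C57BL/6 mice, an inbred laboratory strain with no genetic change here, 1 mouse per array. The mice were 5 weeks old when bought, lived under 12 hours of light and 12 of darkness, and ate freely from either a normal diet (ND) or a high fat diet (HFD) for 3 or 9 months. That gave 4 groups of 2 mice: ND for 3 months, HFD for 3 months, ND for 9 months and HFD for 9 months. The ND held 4.8% fat, 50.21% carbohydrate and 20.78% protein at 3.8 kcal/g, and the HFD 58% fat, 25.5% carbohydrate and 16.4% protein at 5.2 kcal/g, on a basis (weight or energy) that the labels leave unsaid. The description of mouse 1 of the ND group at 3 months mentions steatohepatitis, while its title, source and diet entries all give the normal diet, which set its group. The time of day and the fed or fasted state at killing, and the age at which feeding began, are not given in the sources used here.

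Each array was a 1-colour Agilent array, and a level is the log2 of a probe's processed signal minus the 75th percentile of its own array, so that 0 marks that percentile and a difference of 1 is a doubling. Levels of different genes come from different probes and were not set against each other. The 75th percentile lay between 160.7 and 514 intensity units, lowest in mouse 2 of the HFD group at 9 months, and 40.6% to 54.1% of the spots were well above background. All ND arrays were on 1 slide and all HFD arrays on another, so diet and slide cannot be told apart. Row 1 of each slide held the shorter feeding time and row 2 the longer, so row and duration are tied as well and cannot be told apart. The mice of 3 and 9 months were different animals, so a fall or rise over time is between mice. Age and duration cannot be told apart either. With 2 mice in a group, p-values measure the spread between these mice and their arrays. Hepatocyte markers were bright in every group, taken as the sum of 11 genes in units of the 75th percentile. At 3 months this sum was 5726 to 6301 on ND and 3957 to 4174 on HFD. At 9 months it was 5306 to 5314 on ND and 3905 to 5663 on HFD. In whole liver, fewer cells of a type and less RNA per cell cannot be told apart.

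The pathway works in steps. Insulin raises and activates SREBP1, which is kept in the endoplasmic reticulum by INSIG proteins until it is cut free, and the liver X receptors also switch on its gene. Glucose metabolites activate ChREBP, which binds carbohydrate response elements together with its partner MLX. Between them these factors switch on the enzymes that turn glucose into pyruvate, citrate, acetyl-CoA, malonyl-CoA and palmitate, a program that is high in the fed liver and low in fasting.

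The start regions of 5 members are shown because the results turn on them: the members called in a comparison (Srebf1, Thrsp and Pklr), the enzyme with the widest range over the arrays (Fasn) and the ChREBP gene itself (Mlxipl). Each runs 5′ to 3′ on the strand of its gene from 250 bases before to 50 bases after the start site in RefSeq, on build GRCm38.p6. Capitals mark letters that match a searched motif on either strand: the E-box CACGTG, the CCAAT box CCAAT, the GC box GGGCGG, the sterol element core CACCCCAC, a loose receptor repeat (GGTNA and GGTCA with 5 bases between) or a carbohydrate element (CANGNG and CNCNTG with 5 bases between). The Srebf1 window is chr11:60210422-60210721 on the minus strand, Thrsp chr7:97417501-97417800 on the minus strand and Pklr chr3:89136373-89136672 on the plus strand. The Fasn window is chr11:120824498-120824797 on the minus strand and the Mlxipl window chr5:135089640-135089939 on the plus strand.
Srebf1: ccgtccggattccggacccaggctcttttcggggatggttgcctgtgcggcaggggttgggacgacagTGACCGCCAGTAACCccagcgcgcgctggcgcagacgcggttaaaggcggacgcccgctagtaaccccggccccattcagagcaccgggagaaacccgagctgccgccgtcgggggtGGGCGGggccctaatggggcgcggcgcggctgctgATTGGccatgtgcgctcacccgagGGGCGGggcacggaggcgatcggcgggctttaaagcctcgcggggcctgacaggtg
Thrsp: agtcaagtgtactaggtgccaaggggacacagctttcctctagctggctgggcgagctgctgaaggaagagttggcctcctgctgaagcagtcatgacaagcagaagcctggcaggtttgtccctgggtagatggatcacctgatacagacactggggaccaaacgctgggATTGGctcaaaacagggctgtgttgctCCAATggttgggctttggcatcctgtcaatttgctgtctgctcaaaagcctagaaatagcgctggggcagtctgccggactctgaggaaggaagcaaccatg
Pklr: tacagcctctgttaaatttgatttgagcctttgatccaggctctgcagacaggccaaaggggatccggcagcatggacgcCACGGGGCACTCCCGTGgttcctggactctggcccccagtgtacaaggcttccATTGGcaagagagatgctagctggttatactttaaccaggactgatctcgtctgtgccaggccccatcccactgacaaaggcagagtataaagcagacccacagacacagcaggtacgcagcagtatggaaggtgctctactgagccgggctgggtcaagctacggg
Fasn: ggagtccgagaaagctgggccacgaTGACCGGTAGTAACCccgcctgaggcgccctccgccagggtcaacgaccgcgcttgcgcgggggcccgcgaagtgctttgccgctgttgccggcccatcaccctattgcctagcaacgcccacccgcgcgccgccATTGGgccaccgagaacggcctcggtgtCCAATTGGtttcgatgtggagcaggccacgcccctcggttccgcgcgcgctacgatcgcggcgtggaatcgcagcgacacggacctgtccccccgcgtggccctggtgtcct
Mlxipl: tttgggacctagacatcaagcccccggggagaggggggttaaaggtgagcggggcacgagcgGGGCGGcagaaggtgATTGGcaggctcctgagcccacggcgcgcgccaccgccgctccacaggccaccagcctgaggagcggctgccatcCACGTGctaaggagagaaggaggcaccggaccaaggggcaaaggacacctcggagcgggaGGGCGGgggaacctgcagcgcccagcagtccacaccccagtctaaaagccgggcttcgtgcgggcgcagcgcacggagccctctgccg

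Among the 16 RefSeq windows of the 10 members, the carbohydrate element was found in 1, upstream of Pklr at position -170, against 0.557% of all 32851 windows of the same length. The loose receptor repeat was found in the Srebf1 window shown, at -182, and in the Fasn window, at -225, against 0.207% of all windows. Both of these motifs were added after a search with stricter letters: the strict LXR repeat (AGGTCA, 4 bases, AGGTCA) and the full sterol element (the core preceded by AT) matched no member window and 0.0152% and 0.0913% of all windows. The E-box was found in 1 member window, that of Mlxipl at -98, against 7.15% of all, and the sterol element core in 1, a Gpam window at -180, against 2.87%. The CCAAT box was in 10 of the 16 windows, of 9 genes, against 37.4% of all, and the GC box in 6, of 5 genes, against 35.7%. The loose E-box CANNTG, which includes CACGTG and is not in capitals, was in 11 of 16 member windows and 72.3% of all. In the Fasn window a CCAAT box and its reverse overlap. These matches are letters in a window and say nothing of binding, and Srebf1 has 3 windows and Mlxipl, Pklr, Gpam and Me1 have 2 each, to which the array probes, whose sequences were not used here, could not be assigned. The other Pklr window holds no carbohydrate element.

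The lowest group mean was that of ND at 9 months for every member except Acacb, whose lowest mean was that of HFD at 9 months. At 9 months Srebf1, Thrsp and Pklr were higher on HFD than on ND, and Srebf1 and Thrsp were lower after 9 than after 3 months on ND. Comparisons were tested with limma on all 8 arrays and adjusted by Benjamini-Hochberg over 20164 features, with a threshold of 0.05. The plot of levels by array shows all 10 members.

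**Figure D1:**
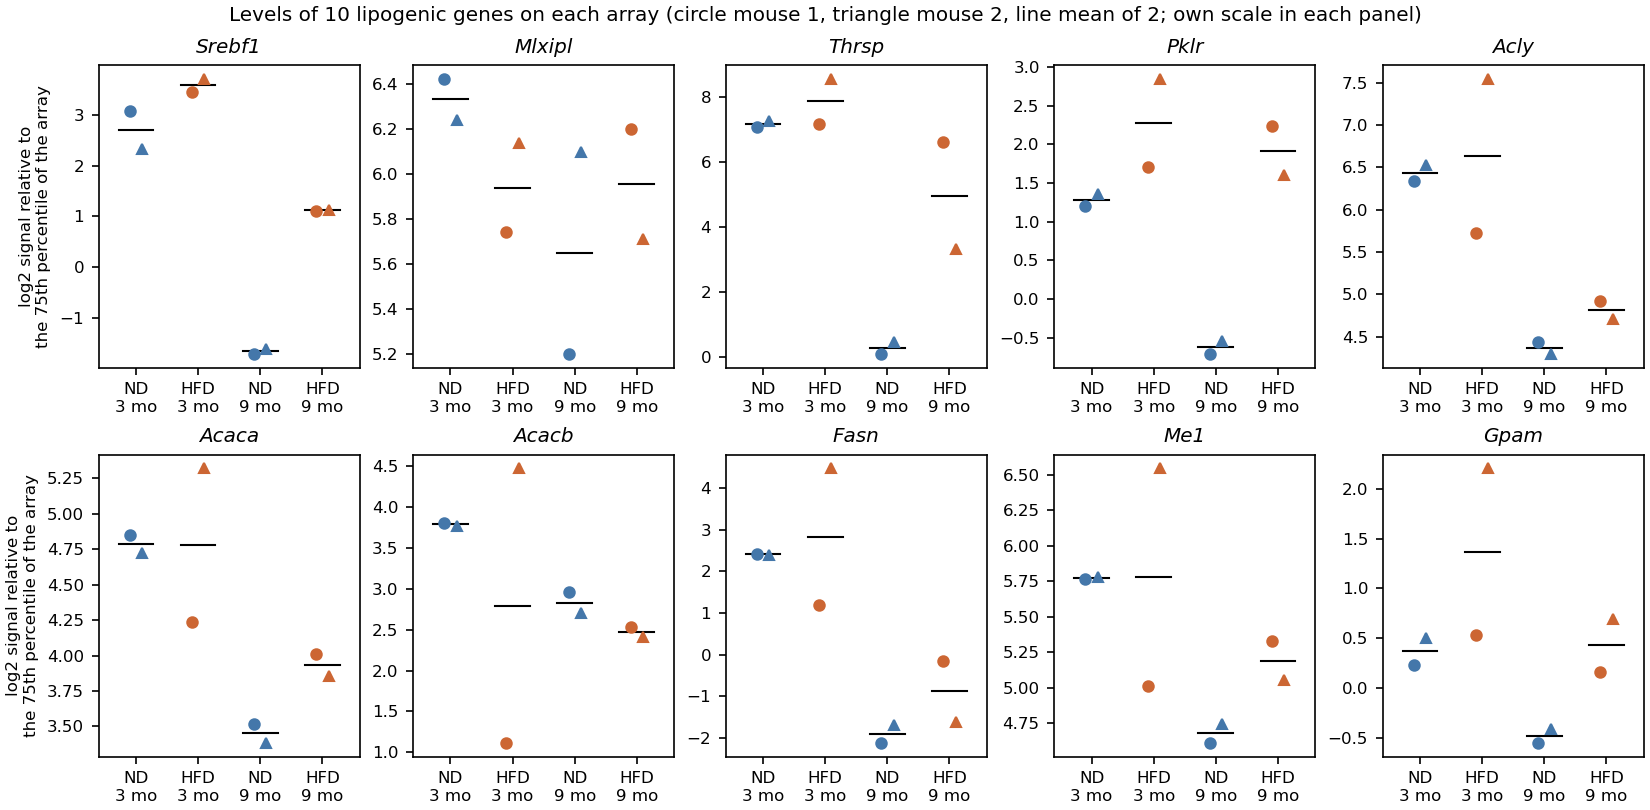
Log2 levels of the 10 members relative to the 75th percentile of each array (y axis, own scale in each panel) in the 4 groups of 2 mice. Circles are mouse 1, triangles mouse 2, and lines the group mean. Every gene is lower on both ND arrays of 9 months than on both ND arrays of 3 months, and Thrsp drops there from between 7.08 and 7.25 to between 0.09 and 0.47.

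Srebf1, the gene of the insulin-responsive activator (probe A_55_P2002557), stood at 3.07 and 2.33 in the ND mice of 3 months and at 3.46 and 3.71 in the HFD mice of 3 months. After 9 months it stood at -1.71 and -1.62 on ND and at 1.11 and 1.12 on HFD. The 4 groups did not overlap, and the order was HFD at 3 months, ND at 3 months, HFD at 9 months and ND at 9 months. The top pair was the closest: HFD exceeded ND at 3 months by 0.89 ± 0.27 (SE, n = 2 against 2), which did not pass in limma (adjusted p = 0.111). At 9 months HFD exceeded ND by 2.78 ± 0.27, a 6.89-fold rise that passed (limma, adjusted p = 0.00741). From 3 to 9 months Srebf1 fell on ND by 4.37 ± 0.27, 20.6-fold (limma, adjusted p = 0.00716), and on HFD the difference was -2.47 ± 0.27, just short of the threshold (limma, adjusted p = 0.0525).

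The diet difference in Srebf1 at 9 months stayed between 2.74 and 2.83 with any 1 array left out. It was not called with array weights (limma, adjusted p = 0.0765), where 1.27% of all features were called, against 8.49% without weights. From the 4 arrays of 9 months alone it was not called either (limma, adjusted p = 0.0564). No feature of the whole array passed in that fit, so it says nothing of single genes, here or below. The fall on ND was not called without ND 3 months mouse 1 (-3.99, limma adjusted p = 0.077), ND 3 months mouse 2 (-4.74, 0.0516) or ND 9 months mouse 1 (-4.32, 0.0609). On HFD the difference over time was -2.46 without HFD 9 months mouse 1. Leaving out 1 array leaves 1 mouse in its group, which adds nothing to the spread, so a call gained that way is no support. Without either ND array of 3 months no feature of the whole array was called over time on ND or between diets at 3 months. A call lost in those fits, here and below, therefore says nothing of the gene.

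Mlxipl, the gene of the glucose-responsive activator, passed in no comparison. Its levels were 6.42 and 6.24 on ND and 5.74 and 6.14 on HFD at 3 months. At 9 months they were 5.20 and 6.10 on ND and 6.20 and 5.71 on HFD. All 8 values lay between 5.20 and 6.42, and at 9 months the diets overlapped. HFD against ND was -0.39 ± 0.35 at 3 months and 0.31 ± 0.35 at 9 months, and 9 against 3 months was -0.68 ± 0.35 on ND and 0.02 ± 0.35 on HFD (limma, adjusted p = 0.501, 0.604, 0.428 and 0.986). The diet value at 9 months turned to -0.14 without ND 9 months mouse 1. ChREBP is mainly controlled by its entry into the nucleus and its activity, which an array of RNA does not measure.

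Thrsp, also called Spot 14, is a small protein that promotes fatty acid synthesis and is a classic target of thyroid hormone, SREBP1 and ChREBP (probe A_55_P2018666). Its levels at 3 months were 7.08 and 7.25 on ND and 7.17 and 8.55 on HFD. At 9 months they were 0.09 and 0.47 on ND and 6.61 and 3.31 on HFD. The ND mice of 9 months stood apart from the other 6 mice, and the 2 HFD mice of 9 months were themselves far apart. On ND it fell from 3 to 9 months by 6.88 ± 1.02, 118-fold (limma, adjusted p = 0.0453), and at 9 months it was 4.68 ± 1.02 higher on HFD, 25.6-fold (limma, adjusted p = 0.0438). On HFD the difference over time was -2.90 ± 1.02 and did not pass (limma, adjusted p = 0.287), nor did diet at 3 months (0.70 ± 1.02, limma adjusted p = 0.689).

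Both Thrsp calls lay near the threshold. Without either HFD mouse of 9 months the wide gap of that pair leaves the spread, so passing in such a fit adds no support. With 1 array left out the diet value at 9 months was 3.03 without HFD 9 months mouse 1 and 6.33 without mouse 2. It was not called without any 1 of the ND arrays or of the HFD arrays of 3 months (4.49 to 4.87, limma adjusted p from 0.0599 to 0.146). The fall on ND was not called without any 1 of these same 6 arrays (-7.07 to -6.70, limma adjusted p from 0.0731 to 0.324). Without the filter on dim probes neither was called (limma, adjusted p = 0.111 and 0.158), and the fall on ND was not called after quantile normalization (0.0581). The diet value was not called with array weights (limma, adjusted p = 0.0752). Nor was it called from the 4 arrays of 9 months alone (limma, adjusted p = 0.143), where no feature passed. Without HFD 9 months mouse 1 the difference over time on HFD was -4.55.

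Pklr, the liver pyruvate kinase, makes the last step of glycolysis and is the textbook target of ChREBP, with the carbohydrate element printed above upstream of it (probe A_51_P176042). At 3 months it stood at 1.20 and 1.36 on ND and at 1.71 and 2.85 on HFD. At 9 months it stood at -0.71 and -0.54 on ND and at 2.24 and 1.60 on HFD. Both HFD groups lay above both ND groups, with no overlap. At 9 months it was 2.54 ± 0.40 higher on HFD, 5.84-fold (limma, adjusted p = 0.0206), against 1.00 ± 0.40 at 3 months, which did not pass (limma, adjusted p = 0.18). On ND the difference over time was -1.91 ± 0.40 (limma, adjusted p = 0.0983) and on HFD -0.36 ± 0.40 (limma, adjusted p = 0.677). The call at 9 months ended without any 1 of the 4 ND arrays (2.46 to 2.63, limma adjusted p from 0.0568 to 0.0829), and the value was 1.52 after normexp background correction and 1.40 in the authors' value table, neither past the threshold (limma, adjusted p = 0.0614 and 0.0669). It was also not called without the filter on dim probes or with array weights (limma, adjusted p = 0.0659 and 0.0711). Nor was it called from the 4 arrays of 9 months alone (limma, adjusted p = 0.0694), where no feature passed.

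The enzymes from citrate to palmitate were lower in both ND mice of 9 months than in both ND mice of 3 months, but none passed the test. Acly, ATP citrate lyase, which makes cytosolic acetyl-CoA, stood at 6.33 and 6.53 on ND and 5.72 and 7.55 on HFD at 3 months, and at 4.44 and 4.30 on ND and 4.92 and 4.71 on HFD at 9 months. Acaca, acetyl-CoA carboxylase 1, which makes the malonyl-CoA used for synthesis, stood at 4.85 and 4.72 on ND and 4.24 and 5.32 on HFD at 3 months, and at 3.52 and 3.38 on ND and 4.01 and 3.85 on HFD at 9 months. For both, the HFD mice of 3 months fell on either side of the ND mice, and the HFD mice of 9 months lay a little above the ND mice of 9 months. The differences over time were -2.06 ± 0.54 on ND and -1.82 ± 0.54 on HFD for Acly (limma, adjusted p = 0.15 and 0.238) and -1.34 ± 0.35 and -0.85 ± 0.35 for Acaca. Those between diets at 9 months were 0.44 ± 0.54 and 0.48 ± 0.35.

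Fasn, fatty acid synthase, which builds palmitate, had the widest range over the arrays among these enzymes. It stood at 2.41 and 2.40 on ND and 1.19 and 4.47 on HFD at 3 months, and at -2.12 and -1.68 on ND and -0.15 and -1.61 on HFD at 9 months. The ND pair of 3 months was nearly identical, while the HFD pair of the same age lay 3.28 apart. From 3 to 9 months it differed by -4.30 ± 1.02 on ND, 19.7-fold (limma, adjusted p = 0.121), and by -3.71 ± 1.02 on HFD (limma, adjusted p = 0.219). Without either HFD array of 3 months the ND differences of Fasn and Acly were the same, and only the estimate of the spread changed. Between diets Fasn differed by 0.43 ± 1.02 at 3 months and 1.02 ± 1.02 at 9 months.

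Acacb, acetyl-CoA carboxylase 2, makes the malonyl-CoA at mitochondria that holds back fatty acid burning. It stood at 3.80 and 3.77 on ND and 1.12 and 4.47 on HFD at 3 months, and at 2.95 and 2.70 on ND and 2.53 and 2.41 on HFD at 9 months. The low value of HFD 3 months mouse 1 was below all 7 other arrays, and at 9 months both HFD mice lay just below both ND mice. The diet value at 3 months was -0.99 ± 0.95 in all arrays (limma, adjusted p = 0.534), -2.67 without HFD 3 months mouse 2, and 0.68 without mouse 1. At 9 months it was -0.35 ± 0.95.

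Me1, malic enzyme, which supplies NADPH for the synthesis, stood at 5.77 and 5.78 on ND and 5.01 and 6.55 on HFD at 3 months, and at 4.61 and 4.74 on ND and 5.33 and 5.05 on HFD at 9 months. Gpam, the mitochondrial acyltransferase that starts triglyceride synthesis, stood at 0.23 and 0.50 on ND and 0.53 and 2.21 on HFD at 3 months, and at -0.55 and -0.42 on ND and 0.16 and 0.69 on HFD at 9 months. In both genes the HFD mice of 9 months lay above the ND mice of 9 months, and in Gpam the HFD mice also lay above the ND mice at 3 months. The differences between diets at 9 months were 0.51 ± 0.47 for Me1 and 0.91 ± 0.52 for Gpam, and over time on ND -1.10 ± 0.47 and -0.85 ± 0.52, and none of these passed.

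Acaca, Acly, Acacb and Me1 had further probes above the filter, none of which was called. The other Acaca probe gave 1.41 ± 0.59 between diets at 9 months (limma over all kept probes, adjusted p = 0.186) and -1.30 over time on ND. The other Acly probe gave 0.76 and -1.78, and the other Acacb probe -0.13 and -0.95. The 2 other Me1 probes gave -0.09 and 0.11 between diets at 9 months, where the main probe gave 0.51, and -1.21 and -1.03 over time on ND. For Me1 the probes thus did not share a sign between diets, while all kept probes of these 4 genes were negative over time on ND.

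**Figure D2:**
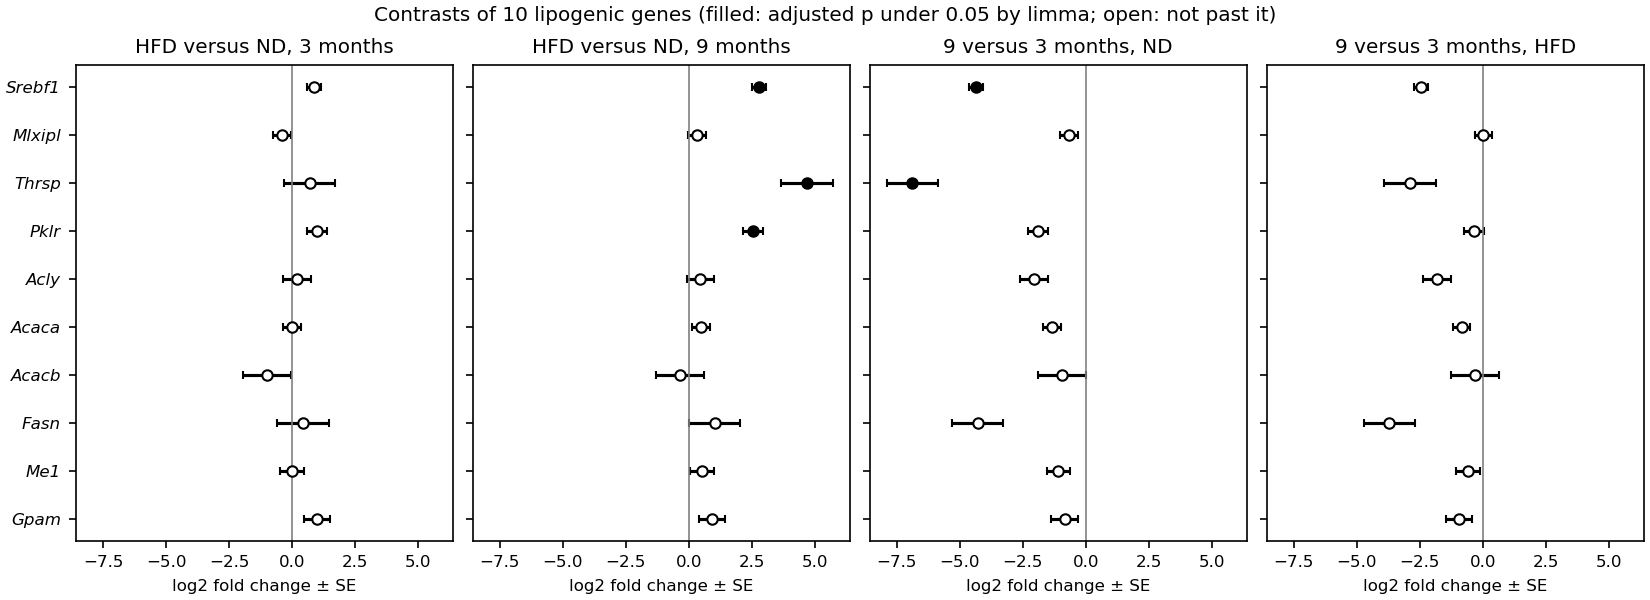
Log2 fold change ± SE of each member in the 4 comparisons (x axis), with 2 mice against 2 in each. Filled points passed an adjusted p of 0.05 in limma and open points did not. Srebf1 (2.78), Thrsp (4.68) and Pklr (2.54) are filled for HFD against ND at 9 months, and Srebf1 (-4.37) and Thrsp (-6.88) for 9 against 3 months on ND.

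Between diets at 3 months, 0 of 10 members were called in limma, where 5.19% of all features were (1.61% higher, 3.58% lower). The members' median was 0.31, against 0.03 over all features, and 4 had groups that did not overlap, against 71.4% of all features. At 9 months 3 of 10 were called, all higher on HFD, where 3.89% of all features were called higher, 4.59% lower and 8.49% in either direction. The median was 0.71 against 0.05 over all features, 9 of 10 values were positive, and 9 of 10 had groups that did not overlap, against 54.6% of all features. The exception in sign was Acacb, and the overlapping gene was Mlxipl. The members were chosen with earlier results of these data known, so their counts beside all features, here and below, are descriptions.

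Over time on ND 2 of 10 members were called, both lower, where 0.531% of all features were called lower, 0.441% higher and 0.972% in either direction. All 10 members were lower on both ND arrays of 9 months than on both of 3 months, against 59.7% of all features whose groups did not overlap in either direction. The members' median was -1.62, against -0.07 over all features. Each of the 10 stayed negative under all 10 other settings and with any 1 of the 8 arrays left out. Without either ND array of 3 months no feature of the whole array was called in this comparison, so the calls lost there say nothing of the members. Without either ND array of 9 months the share called over all features fell as well. Over time on HFD 0 of 10 were called in limma, where 0.00992% of all features were (0.00496% higher, 0.00496% lower). The median was -0.89 against 0.00 over all features, 9 of 10 values were negative, and 5 members had groups that did not overlap, all lower, against 44.2% of all features. The comparisons share arrays, the ND mice of 9 months entering both the diet comparison of that time and the ND comparison over time, so their values for a gene are not independent.

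Whether diet acted differently at the 2 times was asked with an interaction term, the diet difference at 9 months minus that at 3 months. In limma 0 of 10 members passed, and 0 of all features (0%). The largest values were those of Thrsp (3.98 ± 1.44, adjusted p = 0.625), Srebf1 (1.90 ± 0.39, adjusted p = 0.384) and Pklr (1.55 ± 0.57, adjusted p = 0.629), all in limma. The diet difference of these genes past the threshold at 9 months and not at 3 months was therefore not shown to differ between the times.

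For 7 of 10 members the gap between the 2 mice of a group was widest at 3 months on HFD, while over all features the HFD mice of 9 months differed more often. The exceptions were Thrsp, with its widest gap on HFD at 9 months, Mlxipl on ND at 9 months and Srebf1 on ND at 3 months. On HFD at 3 months all 10 members were higher in mouse 2 than in mouse 1, and 8 of them by more than 1 on the log2 scale, where 9.91% of all features differed by that much in either direction and 50.4% were higher in mouse 2. The widest gaps were 3.35 for Acacb and 3.28 for Fasn, followed by 1.82 for Acly, 1.68 for Gpam and 1.53 for Me1. The regulators differed least there, with 0.25 for Srebf1 and 0.40 for Mlxipl, so that the enzymes lay apart in mice whose Srebf1 levels were close. Of 13 other fatty acid synthesis genes 11 were also higher in mouse 2, 8 of them by more than 1, with a median of 1.39. Among the SREBP regulators and among the ChREBP partners none was higher in mouse 2 by more than 1, and 1 gene of each of these lists, as of the other fatty acid synthesis genes, was lower by more than 1. In the other groups the members' gaps above 1 numbered 0 on ND at 3 months (1.78% of all features), 0 on ND at 9 months (9.96%) and 2 of 10 on HFD at 9 months (16.6%), Thrsp (-3.31) and Fasn (-1.46), both lower in mouse 2. For every member except Srebf1 the gap on HFD at 3 months was larger in size than the diet difference of that time. For Mlxipl the 2 were nearly equal in size (0.395 against -0.394).

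**Figure D3:**
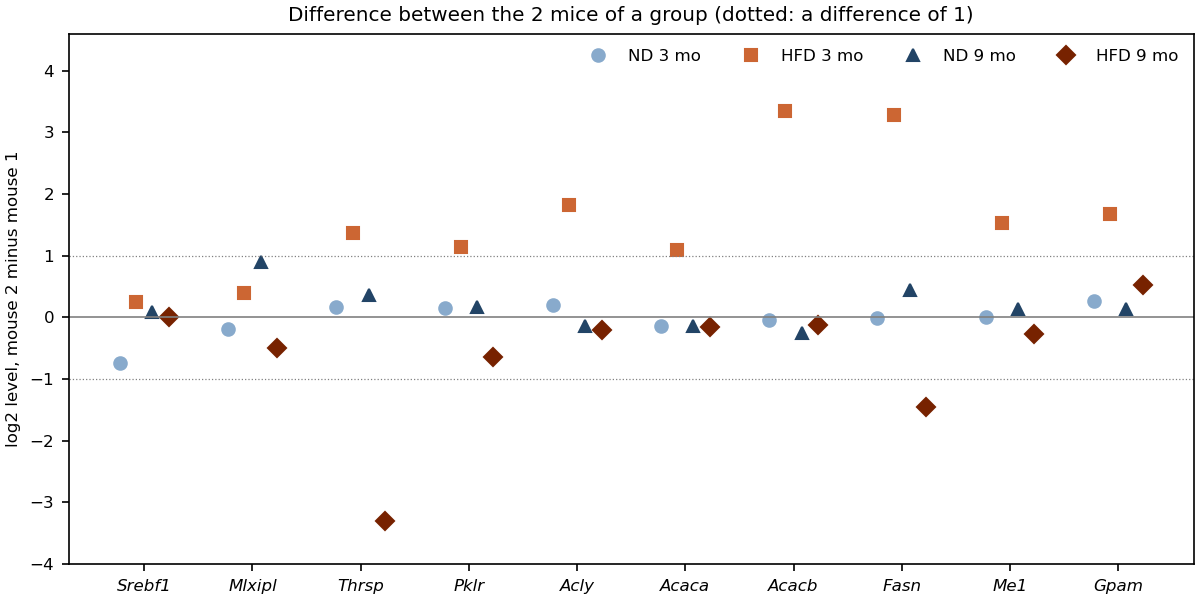
Log2 level in mouse 2 minus mouse 1 of the same group (y axis) for each member (x axis), with a symbol for each of the 4 groups and dotted lines at a difference of 1. The HFD pair of 3 months lies above 0 for all 10 members and above 1 for 8, while Thrsp (-3.31) and Fasn (-1.46) of the HFD pair at 9 months lie below -1.

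The genes upstream of SREBP1 were described next, from a list of 12 regulators of SREBP and LXR activity, all tested. Between diets at 3 months 0 were higher and 1 was lower, with a median of 0.01, at 9 months 0 and 1 (median -0.04), and over time 0 and 1 on ND (median -0.14) and 0 and 0 on HFD (median 0.02). Insig1, which holds SREBP in the endoplasmic reticulum and is itself an SREBP target, stood at 2.86 and 3.13 on ND at 3 months and at -0.06 and 0.00 at 9 months. That fall was 3.03 ± 0.45 (limma, adjusted p = 0.0453). Insig2, its paralog, which rises in fasting, was lower on HFD at 9 months (-1.10 ± 0.25, limma adjusted p = 0.0475). Ppargc1b, a coactivator of SREBP1, was not well above background on either HFD array of 3 months and was at least 12.6-fold lower there than on ND, taking the lowest signal well above background as the bound (limma, adjusted p = 0.0332). The Insig1 call ended without any 1 of the ND arrays or HFD arrays of 3 months, the Insig2 call without any array but HFD 9 months mouse 1, and the Ppargc1b call without either ND array of 3 months.

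Of 11 genes listed as ChREBP partners or glucose sensors 10 were tested, the paralog Mlxip not passing the filter. At 9 months 3 were higher on HFD and 0 lower, with a median of 0.76. Among them Rgs16, a regulator of G protein signals and ChREBP target, stood at 1.21 and 2.06 on ND and 4.90 and 3.83 on HFD, higher by 2.73 ± 0.56 (limma, adjusted p = 0.0377), and Khk, the fructose kinase, by 0.83 ± 0.18 (limma, adjusted p = 0.0428). In the 3 other comparisons 0 of 10 passed in limma, and the medians were 0.35 for diet at 3 months, -0.69 over time on ND and -0.21 over time on HFD. With 1 array left out Rgs16 and Khk were past the threshold in 1 of 8 cases each, without HFD 9 months mouse 2.

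Of 15 other fatty acid synthesis genes 13 were tested. Over time on ND 2 were lower and 0 higher, with a median of -1.26. Mid1ip1, the paralog of Thrsp that binds acetyl-CoA carboxylase, stood at 5.54 and 5.71 at 3 months and at 2.73 and 2.71 at 9 months on ND. It fell by 2.91 ± 0.19 (limma, adjusted p = 0.00747) and the other was Insig1. On HFD Mid1ip1 stood at 5.39 and 5.15 at 3 months and 3.61 and 3.37 at 9 months, a difference of -1.78 ± 0.19 that just missed (limma, adjusted p = 0.0525). Like Thrsp it was lowest on ND at 9 months, but its diet difference at 9 months, 0.77 ± 0.19, was smaller and did not pass (limma, adjusted p = 0.0592). The Mid1ip1 call ended without either ND array of 3 months or without ND 9 months mouse 1. In limma 0 of the 13 were called between diets, at 3 months (median -0.15) or at 9 months (0.49), and 0 over time on HFD (-1.18). Of 11 genes of NADPH and sugar supply Rpia, ribose phosphate isomerase, was higher on HFD at 9 months (1.44 ± 0.28, limma adjusted p = 0.0318, in 2 of 8 cases with 1 array left out), and none other was called in any comparison. Of 10 genes of triglyceride synthesis beyond Gpam 0 were called in limma in any comparison, with medians from -0.40 over time on HFD to 0.14 between diets at 3 months.

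Among the genes whose levels over the 8 arrays were most like those of Srebf1 by Pearson r, of 4444 named features with an SD of at least 0.5, were Accs (0.986), Klk1b4 (0.980) and Klk1 (0.975). The genes most like Mlxipl were Malat1 (0.950), Cela1 (0.900), Grm8 (0.885), Akr1c19 (0.879) and Prss8 (0.870). Some of these values lie at background: Grm8 was well above it on both arrays of the ND group of 3 months only and on neither HFD array of 3 months, Cela1 on 1 of 2 arrays in both groups of 9 months and Klk1 on 1 of 2 ND arrays of 9 months, so their places in this order are uncertain. These are descriptions over 8 arrays that share the group differences and the slide, and with so many candidates high values are easily found.

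Genes that follow feeding and the time of day were measured beside the program, since neither is given for these mice. Of 16 tested clock and clock output genes 1 was higher and 2 lower over time on ND (median -0.55). Dbp, a clock output factor with a strong daily rhythm, stood at 6.62 and 6.23 on ND at 3 months and at 3.60 and 3.61 at 9 months, against 6.66 and 6.77 and then 6.65 and 6.15 on HFD. On ND it fell by 2.82 ± 0.24 (limma, adjusted p = 0.0162), and at 9 months it was 2.79 ± 0.24 higher on HFD (limma, adjusted p = 0.0064). Bhlhe40, a clock-linked repressor, fell on ND by 2.45 ± 0.31 (limma, adjusted p = 0.0329), and Arntl, the core clock activator that runs opposite to Dbp, rose by 2.03 ± 0.27 (limma, adjusted p = 0.0346). At 9 months 4 clock genes were higher on HFD and 1 lower (median 0.87), with Bhlhe40 at 1.75 ± 0.31, Nr1d2 at 1.30 ± 0.23 and Arntl at -1.71 ± 0.27, and the last was Per3. At 3 months between diets 0 of 16 were called in limma (median 0.55), and over time on HFD 0 (median -0.32; Clock, 1.07 ± 0.31, adjusted p = 0.234).

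The ND mice of 9 months thus stood apart in clock genes in the same 2 comparisons in which Srebf1 and Thrsp were called, and the part of clock phase in those calls was not tested. The higher Dbp on HFD at 9 months was called with any 1 array left out. At 9 months the Arntl call ended without either ND array of that time, the Bhlhe40 call also without HFD 9 months mouse 1, and the Nr1d2 call without any 1 of the 4 ND arrays. The Dbp fall on ND was not called without any 1 of the 4 ND arrays, and the Bhlhe40 and Arntl calls on ND ended without any of those or of the HFD arrays of 3 months.

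Of 14 genes that respond to fasting and insulin 2 were higher over time on ND and 0 lower (median 0.67). Fgf21, the fasting hormone of the liver, stood at -2.26 and -1.10 at 3 months and 4.01 and 2.81 at 9 months on ND, a rise of 5.09 ± 0.59 (limma, adjusted p = 0.0298). Angptl4, a fasting-induced inhibitor of lipoprotein lipase, also rose by 1.74 ± 0.22 (limma, adjusted p = 0.0325). Fgf21 was also 3.12 ± 0.59 higher at 9 than at 3 months on HFD, which did not pass (limma, adjusted p = 0.135). At 9 months Irs2, the insulin receptor substrate that fasting raises, was lower on HFD (-1.38 ± 0.31, limma adjusted p = 0.0467). G6pc (-1.83 ± 0.47) and Pck1 (-1.08 ± 0.28), enzymes that make glucose in fasting, did not pass (limma, adjusted p = 0.0626 and 0.0627). Between diets at 9 months 7 of the 14 genes were positive and 7 negative, with a median of -0.02. The Irs2 call ended with any 1 array left out, and the Fgf21 and Angptl4 calls without any ND array or HFD array of 3 months. At 3 months between diets 0 of 14 were called in limma, and Cpt1a, the gate of fatty acid burning, was 1.35 ± 0.30 higher (limma, adjusted p = 0.0578). The part of the feeding state in the lipogenic calls was not tested.

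**Figure D4:**
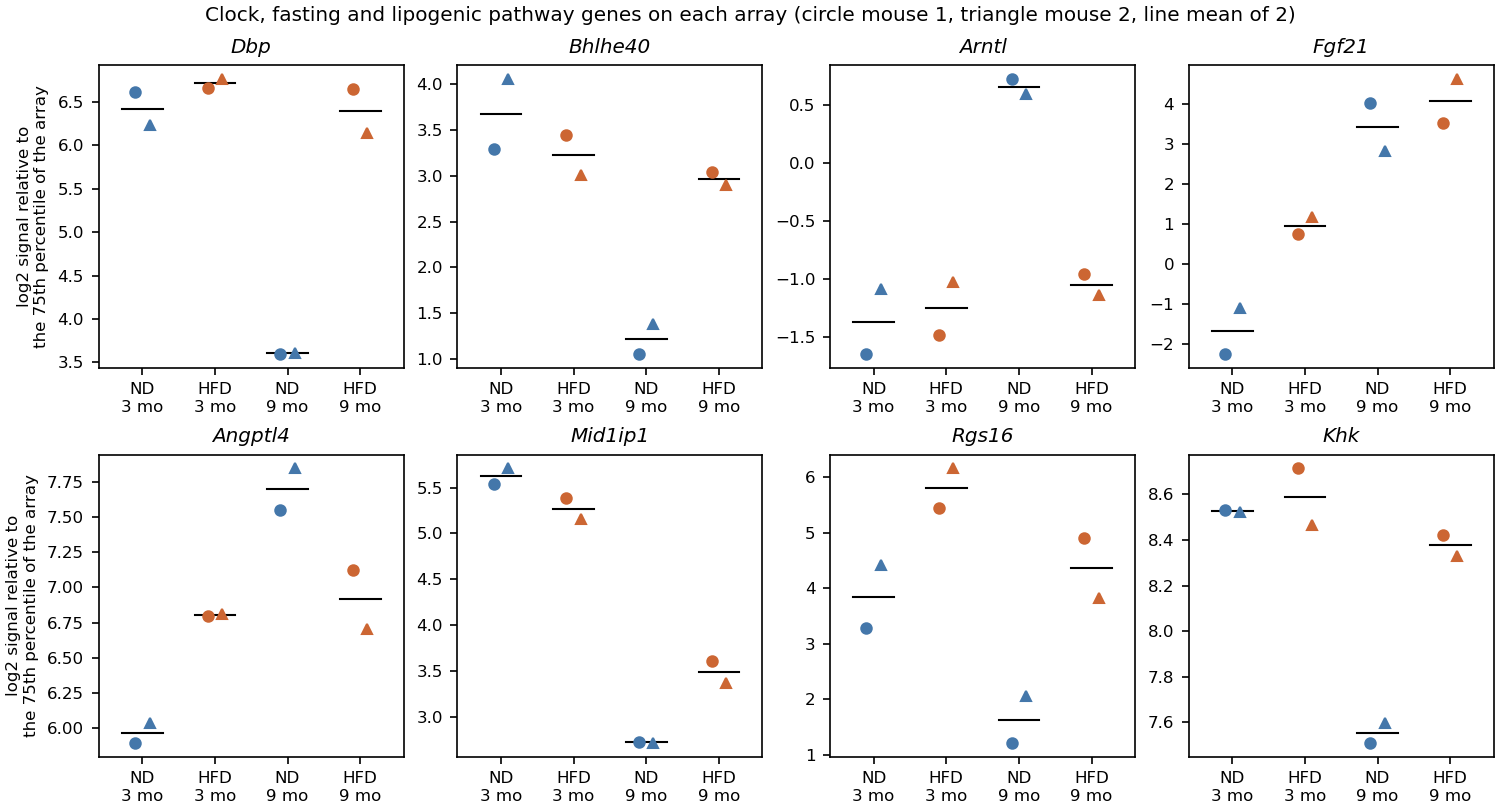
Log2 levels on each array (y axis, own scale in each panel) of clock genes (Dbp, Bhlhe40, Arntl), fasting genes (Fgf21, Angptl4), the Thrsp paralog Mid1ip1 and the ChREBP list genes Rgs16 and Khk, in the 4 groups of 2 mice. Circles are mouse 1, triangles mouse 2, and lines the group mean. Both ND mice of 9 months are lowest for Dbp (3.60 and 3.61) and Mid1ip1 (2.73 and 2.71), highest for Arntl, and low for Rgs16 (1.21 and 2.06).

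Markers of other cell types also moved with diet. Of 8 stellate cell and matrix markers 3 were higher on HFD at 3 months, Col1a1 (2.89 ± 0.39, limma adjusted p = 0.0195), Col3a1 and Col1a2, and 4 at 9 months, with a summed level of 5.13 to 9.33 on ND and 18.2 to 29.4 on HFD in units of the 75th percentile. Of 7 adipocyte markers 3 were tested, and Fabp4 was higher on HFD at 9 months (3.28 ± 0.45, limma adjusted p = 0.0141). The summed adipocyte level was 1.69 to 14.9 on ND and 13.1 to 33.9 on HFD, while the defining markers Adipoq, Lep and Plin1 were well above background on no array. The other tested markers were Cfd (1.41 ± 1.11 at 3 months and 3.74 ± 1.11 at 9 months) and Lipe, both named after their values were seen, and neither was called between diets. Lipe ran the other way: at 3 months it was -2.02 ± 0.80, well above background on 1 of 2 HFD arrays, and at 9 months it was well above background on neither HFD array and at least 2.06-fold lower there. In limma 0 of 9 macrophage markers were called in any comparison (summed level 59.5 to 63.9, 69.9 to 87.1, 116 to 356 and 82.7 to 148 for ND and HFD at 3 months and ND and HFD at 9 months). Over time on ND 8 of these 9 had positive values, with a median of 2.00. Between diets 7 of the 9 were positive at 3 months (median 1.58) and 6 at 9 months (median 0.07). Cd4 was lower on HFD at 3 and 9 months (-2.20 ± 0.36 and -2.97 ± 0.36), with 33.0 to 70.2 for the sum of 6 T and B cell markers on HFD against 181 to 261 on ND. Single genes were called among endothelial (Lyve1, 2.32 ± 0.36 at 3 months), bile duct (Cftr, -1.76 ± 0.30 at 9 months) and hepatocyte markers (Tat, -1.81 ± 0.30 at 9 months), and among 3 pancreas markers none. Between diets 9 of 11 hepatocyte markers were negative at either time (median -0.48 at 3 months and -0.30 at 9 months). Of 8 endothelial markers 7 were positive at 3 months and 6 at 9 months. Of 4 tested bile duct markers 2 were positive and 2 negative at either time. Of the 6 T and B cell markers 4 were positive at 3 months and 3 at 9 months. Without 1 array the Col1a1, Fabp4 and Cd4 calls at 9 months held in 8, 7 and 8 of 8 cases, Fabp4 ending without ND 9 months mouse 2. The calls at 3 months of Col1a1, Col3a1, Col1a2 and Lyve1 ended without any 1 of the 4 arrays of that time, and that of Cd4 without either ND array of 3 months or HFD 3 months mouse 1. The part of these cell types in the members' differences, between diets or over time, was not tested.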

How the data were processed

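Agilent scanner files of 8 arrays held the processed signal, the median and background signals (intensity, as deposited by the authors) and spot flags. They were made with Agilent Feature Extraction 10.7.1.1, per the submitters' processing notes. The authors' value table held log2 values as deposited; its columns ranked exactly as the median signal (rho 1) and each had a median near 7.14, while its normalization is not given in the sources used here. The mean signal was not used here, so normexp (offset 50) was run on the median signal.

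From 59305 spots that were no controls, spots of a probe were averaged to 55681 probes, of which 55603 were measured on all arrays and 25800 passed the filter. Probes were named through a RefSeq table (GRCm38.p6, names and start regions only), and the probe with the highest mean signal stood for a gene, giving 20164 features. Levels were log2 processed signal minus the 75th percentile. limma 3.58.1 in R 4.3.3 was fitted to the 4 groups, with eBayes and Benjamini-Hochberg adjustment, and was tested on simulated data. Figures and motif searches used Python 3.11.15. The slide could not be fitted as a block, since it holds 1 diet.

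The members and lists were chosen with earlier results of these data known. Named beside the members were list genes past the threshold (at most 4 in a comparison), the 4 clock and fasting genes at most with the smallest p, Mid1ip1, markers past the threshold (at most 3) and the 5 most similar genes; some genes that this rule names are not reported here. Further settings were quantile normalization, normexp, the authors' table, no filter, a filter on all arrays, the mean of a gene's probes, trend and robust moderation, array weights, the compared arrays alone, the replicate block and each array left out.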

Additional observations from a re-analysis of the deposited data

How the results depend on the processing

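Of the members' values under other settings, 810 kept their direction and side of the threshold, 33 lost a call, 19 gained one and 28 changed sign. Over time on HFD 1 member (Srebf1) was called instead of 0 after quantile normalization, after normexp, in the authors' value table, with the filter on all arrays and with trend and robust moderation. In these settings 0.0843% to 0.347% of all features were called, against 0.00992% in the fit reported above. Over time on ND the count of 2 became 1 after quantile normalization and 1 without a filter, 6 with array weights and 5 from the 4 compared arrays alone. Of all features 0.808%, 0.0135%, 6.1% and 0.61% were called there, against 0.972% in the fit reported above. For diet at 9 months the count of 3 became 1 without a filter, 0 with array weights and 0 from the compared arrays alone. Of all features 0.707%, 1.27% and 0% were called there, against 8.49% in the fit reported above. For diet at 3 months the count stayed 0 in these settings, where 0.189% to 20.5% of all features were called. The cause was not tested, and a call gained with 1 array left out adds no support. The interaction had 0 members called in limma under every setting.

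The replicate number names separate mice, and same-numbered mice did not deviate together (correlations from -0.02 to 0.14). With the replicate number as a block, 1 member (Srebf1) was called over time on ND and 2 (Pklr and Srebf1) for diet at 9 months. Of all features 0.134% and 6.64% were called with this block. Thrsp was then not called in either (limma, adjusted p = 0.0854 over time on ND and 0.0682 for diet at 9 months).

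The Acaca diet value at 3 months was 0.055 after quantile normalization, 0.0069 in the authors' table and 0.24 as the mean of probes. That of Me1 was -0.025 after normexp and -0.24 as the mean of probes, and the Acly interaction was -0.014 after quantile normalization and -0.19 in the authors' table. With 1 array left out the diet value at 3 months ran from -0.55 to 0.53 for Acaca and -2.67 to 0.68 for Acacb. It ran from -0.71 to 1.11 for Acly, -1.22 to 2.07 for Fasn and -0.76 to 0.77 for Me1. At 9 months it ran from -0.14 to 0.75 for Mlxipl. The difference over time on HFD ran from -2.00 to 1.36 for Acacb, -1.36 to 0.18 for Me1, -0.23 to 0.26 for Mlxipl and -0.93 to 0.21 for Pklr. The interaction ran from -0.054 to 1.03 for Acaca, -1.04 to 2.32 for Acacb, -0.67 to 1.15 for Acly, -1.05 to 2.23 for Fasn, -0.93 to 0.75 for Gpam and -0.26 to 1.27 for Me1.

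Over all settings the share of features called ran from 0% to 20.5% for diet at 3 months, 0% to 12.1% at 9 months, 0% to 6.1% over time on ND and 0% to 9.26% on HFD. Without a filter the median of all features was 0.29 and 0.33 for diet at 3 and 9 months and 0.16 over time on HFD, and with normexp 0.11 for diet at 9 months; the other shifts above 0.1 were 0.13 for the interaction without a filter and 0.11 for diet at 9 months with the filter on all arrays. With 2 mice a group the number of arrays limits the precision.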
